A study of Mus musculus with 32 samples.

Results

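The comparison described here asks whether the effect of losing acid alpha-glucosidase on mouse tibialis anterior changed between 4 and 9 months of age. For each gene, the Gaa-/- minus wild-type (WT) difference at 4 months was subtracted from the same difference at 9 months. A positive value means that expression in Gaa-/- relative to WT was higher at 9 than at 4 months. The comparison used 16 of the 32 arrays, 4 in each of 4 groups, and all 19291 probe sets with a gene symbol. The groups were WT and Gaa-/- mice of a B6/129 background at 4 months and at 9 months, without treatment in the labels. Each array held total RNA of a tibialis anterior, labelled as a biological replicate, and the design statement gives 4 animals for each group. Sex, litter and scan date are not among the labels, and whether WT and Gaa-/- mice were littermates is not stated. The remaining 16 arrays, from mice of 1.5 and 6 months, entered the model to estimate the spread between animals.

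Acid alpha-glucosidase, encoded by Gaa, breaks down glycogen inside lysosomes, and its deficiency causes Pompe disease. Glycogen then accumulates in lysosomes, which enlarge and disturb the muscle fibres around them. The tibialis anterior is a fast muscle of the lower leg. Calcium release and uptake by the sarcoplasmic reticulum drive its contraction, and mitochondria supply part of its energy from fatty acids and pyruvate.

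Values are on the log2 scale, so a difference of 1 is a doubling. A gene is called where its limma p-value was below 0.05 after Benjamini-Hochberg adjustment across all 19291 genes. Estimates are given ± standard error (SE). Levels of Myh4, Acta1 and Ckm, genes of fast fibres and of muscle in general, were 13.38 to 13.65, 13.52 to 13.79 and 12.11 to 12.55 over the 16 arrays. The array medians lay between 5.66 and 5.82. Levels of Cd3e, a T cell gene, were 4.04 to 4.93, and those of Cd79a, a B cell gene, 4.27 to 5.24, all below the array medians. In whole muscle, fewer cells of a type and less RNA per cell cannot be told apart.

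The targeted gene was low in every Gaa-/- muscle at both ages. Gaa levels were 10.61, 10.63, 10.36 and 10.53 in WT and 6.70, 6.87, 7.11 and 7.25 in Gaa-/- at 4 months. At 9 months they were 10.62, 10.69, 10.70 and 10.62 in WT and 6.86, 6.81, 6.89 and 6.91 in Gaa-/-. Groups did not overlap at either age (exact two-sided permutation p = 0.0286 at each, the smallest that 4 against 4 arrays allow). The Gaa difference changed by -0.24 ± 0.18 (95% confidence interval -0.61 to 0.13, limma adjusted p = 0.717).

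The width of the distribution of values differed between arrays, and this bears on every age comparison below. The standard deviation (SD) of the values of an array was 1.97 ± 0.046 in WT at 4 months, 1.85 ± 0.045 in WT at 9 months, 1.99 ± 0.039 in Gaa-/- at 4 months and 1.92 ± 0.026 in Gaa-/- at 9 months (mean ± SD over 4 arrays). Exact two-sided permutation tests gave p = 0.0571 for 9 against 4 months in each genotype and for Gaa-/- against WT at 9 months (adjusted over 4 tests, 0.0761). For Gaa-/- against WT at 4 months, p was 0.429. The narrowest array was replicate 1 of WT at 9 months, at 1.79. For this reason all comparisons were repeated after quantile normalization of all 32 arrays, which gives every array the same distribution.

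**Figure D1:**
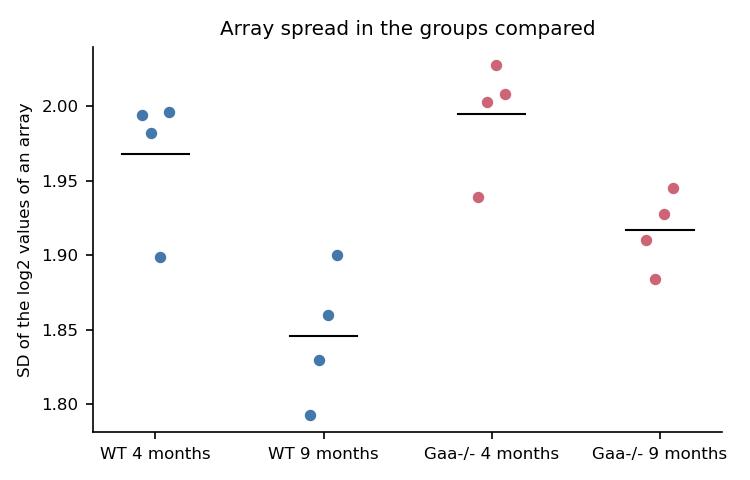
Standard deviation of the log2 values of each array (y axis) in the 4 groups compared, with 1 point per array and a line at the group mean. The 4 arrays of WT at 9 months lie between 1.79 and 1.90, lower than most others.

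Few genes passed the test of a changing genotype difference. Of 19291 genes, 14 were called (0.0726% of those tested): 12 with a higher value at 9 months (0.0622%) and 2 with a lower one (0.0104%). After quantile normalization 15 genes were called (0.0778%), 11 higher (0.057%) and 4 lower (0.0207%), so that the higher share went from 85.7% to 73.3% of the calls. The lists shared 11 genes, which is 11 of 14 on the deposited scale and 11 of 15 on the other. Those shared and higher were Casq2, Mocs2, Rnf166, Tm6sf1, Relt, Crhr2, Tmem222, Clip4 and Scmh1. Those shared and lower were Mybph and Slc8a2. At an unadjusted p below 0.05 there were 1872 genes, 9.70% of all. A gene with the median SE of 0.22 needed an estimate of 1.09 to be called, and only 7 of the 59 genes with an absolute estimate of 1 or more were called.

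The number of calls depended on the setting and on individual arrays. A fit of the 16 arrays alone called 2 genes, Casq2 and Mybph. A filter kept 10863 genes with a mean above the lowest array median in at least 1 of the 4 groups, and it called 44. A gene could therefore pass it through the group in which it was high. A limma fit with a trended, robust prior called 42. Leaving out 1 array left 2 calls without replicate 1 of WT at 4 months and 2 without replicate 3 of Gaa-/- at 9 months. It left 3 without replicate 4 of Gaa-/- at 9 months, 5 without its replicate 1, 6 without replicate 1 of Gaa-/- at 4 months, 7 without replicate 4 of WT at 4 months and 8 without its replicate 2. In contrast, 53 genes were called without replicate 4 of WT at 9 months and 52 without replicate 2 of Gaa-/- at 9 months, all 14 among them in each case. In every setting and with any array left out, each of the 14 genes that was tested kept its sign, which their choice by this contrast favours. Casq2 and Crhr2 were called with each of the 16 arrays left out in turn.

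**Figure D2:**
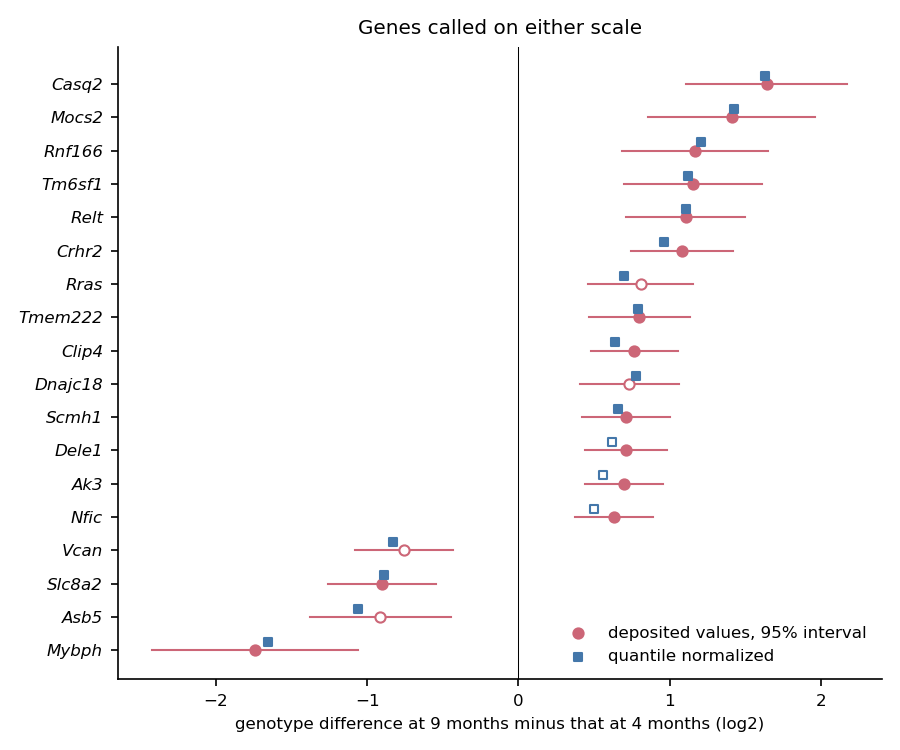
Change of the genotype difference from 4 to 9 months (x axis, log2) for the 18 genes called on at least 1 scale, with circles and 95% intervals for deposited values and squares for quantile-normalized ones. Filled symbols mark calls on that scale. Casq2, at 1.64, lies highest and Mybph, at -1.74, lowest.

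The genotype differences at the separate ages give the setting of these calls. Gaa-/- and WT differed in 1099 genes at 4 months (5.7%) and in 2299 at 9 months (11.9%), with different animals behind each. Across genes, which are not independent replicates, the difference at 4 months and that at 9 months had a Pearson's r of 0.596. Of 1624 genes called at 9 months only, 9 were called in the change between ages. Of 424 genes called at 4 months only, 2 were called in it, and of 672 called at both ages in the same direction, 1 was. Larger call counts at 9 months are therefore not a count of genes whose difference changed. On deposited values 3 genes were called at both ages with opposite signs, and Scmh1 and Dele1 among them were called in the change.

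**Figure D3:**
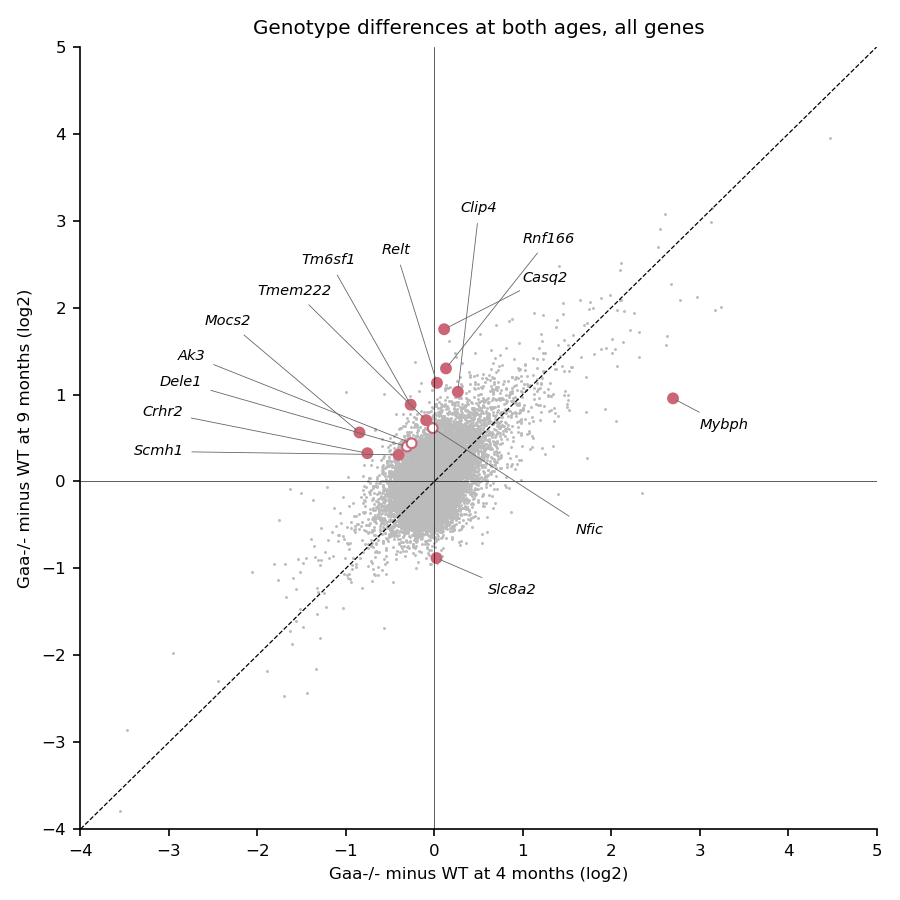
Gaa-/- minus WT at 4 months (x axis, log2) against the same at 9 months (y axis, log2) for 19291 genes, with a dashed line of equality. Red points are the 14 called genes, filled where also called after quantile normalization. Mybph lies far below the line, and Casq2, Rnf166, Relt, Tmem222 and Nfic lie above it at differences near 0 at 4 months.

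The same contrast can be read as the change with age within each genotype, between different animals of 4 and 9 months. From 4 to 9 months 4106 genes were called in WT (21.3%) and 797 in Gaa-/- (4.13%). With array SD as a covariate these counts were 167 and 191. Mean array SD was lower at 9 than at 4 months in both genotypes, so that fit cannot fully separate age from array SD. Without replicate 1 of WT at 9 months the WT count was 2578. In Gaa-/-, leaving out 1 array gave between 149 calls (without replicate 3 of Gaa-/- at 4 months) and 1708 (without replicate 1 of the same group). Of the 14 genes, 13 were called with age in WT, 11 of them lower at 9 months (13% of all genes), and 6 in Gaa-/-. The age changes are parts of the contrast that chose these genes, so the choice raises these counts by itself. On deposited values the WT change was the larger of the pair in 12 of 14 genes, against 11885 of 19291 overall. After quantile normalization it stayed the larger in Mocs2, Rnf166, Tm6sf1, Tmem222, Scmh1, Slc8a2 and Dele1. The Gaa-/- change was then larger in Casq2 (0.90 against -0.74 in WT), Relt (0.59, -0.52) and Crhr2 (0.58, -0.38). So it was in Clip4 (0.50, -0.14) and Ak3 (0.34, -0.22), and on both scales in Mybph and Nfic. The WT changes of Clip4 and Ak3 were then not called (limma adjusted p = 0.292 and 0.0916). On deposited values the genotypes moved in opposite directions in 11 of 14, against 27.1% of all genes. The choice of genes by this contrast raises that share by itself.

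The 6-month groups are not part of the contrast, but their arrays entered the estimate of the spread and the quantile normalization. In all 14 genes the Gaa-/- minus WT difference at 6 months lay nearer to its 4-month than to its 9-month value, as in 58.6% of all genes. It lay between the values of 4 and 9 months in 13 of 14, a count that the choice of genes with a wide gap between those ages raises by itself. For Casq2 the differences at 1.5, 4, 6 and 9 months were -0.0011, 0.11, 0.47 and 1.75. For Crhr2 they were -0.67, -0.76, -0.25 and 0.33.

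**Figure D4:**
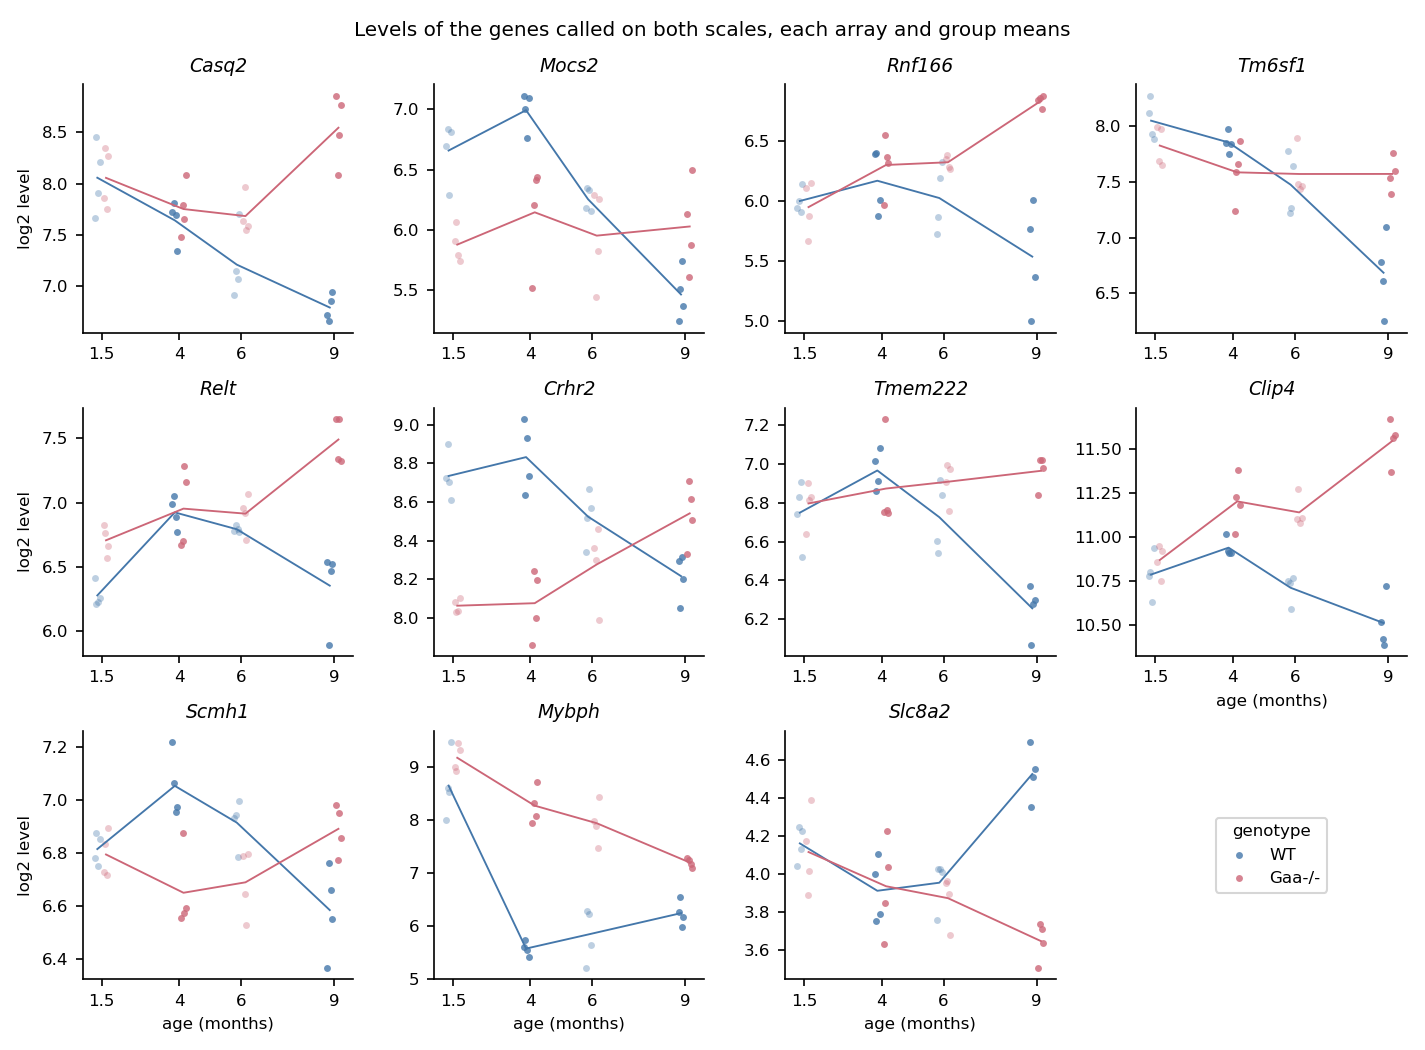
Log2 level (y axis, scaled for each gene) against age in months (x axis) for the 11 genes called on both scales, with a point for each array and lines through the group means. Blue is WT and red is Gaa-/-; arrays of 1.5 and 6 months are paler. For Casq2 the lines lie furthest apart at 9 months, and for Crhr2 they cross.

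Casq2 encodes the cardiac and slow-fibre isoform of calsequestrin, which binds calcium inside the sarcoplasmic reticulum. Crhr2 encodes a receptor for urocortins, peptides related to corticotropin-releasing hormone. Mybph encodes myosin-binding protein H, a protein of the thick filament. The bases just before their annotated starts are shown because these are the calls with the smallest p-values and the largest fall (RefSeq, GRCm38.p6; capitals mark matches to MEF2 and to CANNTG, the E-box read by myogenic factors).

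Casq2, chr3:102086255-102086414, plus strand: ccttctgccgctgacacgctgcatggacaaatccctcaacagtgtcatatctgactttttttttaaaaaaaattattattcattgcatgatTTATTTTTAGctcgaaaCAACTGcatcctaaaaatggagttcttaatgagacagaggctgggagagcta
Crhr2, chr6:55133017-55133176, minus strand: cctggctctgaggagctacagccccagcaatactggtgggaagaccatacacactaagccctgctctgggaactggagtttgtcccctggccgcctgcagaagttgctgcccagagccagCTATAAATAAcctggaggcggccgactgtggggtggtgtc
Mybph, chr1:134193288-134193447, plus strand: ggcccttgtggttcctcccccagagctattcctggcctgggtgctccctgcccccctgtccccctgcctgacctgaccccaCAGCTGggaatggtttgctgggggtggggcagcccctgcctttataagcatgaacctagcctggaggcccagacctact

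A match to MEF2, searched on both strands in the 250 bases before the start, lay 69 bases before the start of Casq2 and 40 before that of Crhr2. Of the 14 called genes, 12 had a promoter in the table, 16 promoters in all. The match was in 2 of the 16, against 2.92% of 32851 promoters, and in at least 1 promoter of 2 of the 12 genes, against 3.42% of 27025 genes. The CANNTG match was in 11 of the 16 (66.2% of all promoters) and in 9 of the 12 genes (69.3% of all genes). These matches describe the sequence only.

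Casq2 had the largest positive change among the called genes. WT levels were 7.73, 7.81, 7.69 and 7.34 at 4 months and 6.72, 6.66, 6.85 and 6.94 at 9 months. In Gaa-/- they were 7.48, 7.79, 7.66 and 8.08 at 4 months and 8.86, 8.09, 8.47 and 8.77 at 9 months. At 4 months the genotypes overlapped, whereas at 9 months every Gaa-/- array lay above every WT array. Casq2 fell by 0.85 with age in WT (limma adjusted p = 0.00161) and rose by 0.79 in Gaa-/- (limma adjusted p = 0.0175). Its difference went from 0.11 ± 0.19 to 1.75 ± 0.19, a 3.37-fold excess at 9 months. The change was 1.64 ± 0.26 (95% confidence interval 1.11 to 2.17, limma adjusted p = 0.00553) and 1.63 after quantile normalization (limma adjusted p = 0.00367).

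Casq2 was the sole call among 783 measured genes of 43 lists, against 14 of all 19291 genes (0.0726%). It belongs to the slow fibre list. Of the 14 measured genes of that list, 7 had positive estimates, with a median of 0.029 against 0.020 over all genes. Tnnt1, slow troponin T, had an estimate of -0.56 ± 0.18 (limma adjusted p = 0.254), and Myh7, the slow myosin heavy chain, -0.33 ± 0.25 (limma adjusted p = 0.717). Levels of Tnnt1 in WT went from 6.61 to 6.82 at 4 months to 7.16 to 7.46 at 9 months, a rise (0.60, limma adjusted p = 0.00131) opposite to the fall of Casq2. Myh7 likewise rose in WT by 0.52 (limma adjusted p = 0.0355). Tnnt1 and Myh7 were the 2 genes of the list called higher with age in WT, and 3 were called lower, Casq2 among them. Over all 19291 genes, 1600 were called higher and 2506 lower. After quantile normalization 3 genes of the list were called higher and 2 lower, against 1864 and 1762 of all genes. Casq1, the fast-fibre calsequestrin, had an estimate of -0.087 ± 0.14 (limma adjusted p = 0.895). Of its junctional partners, Ryr1, the calcium release channel, was at -0.088 ± 0.13 and Trdn, triadin, at 0.98 ± 0.51 (limma adjusted p = 0.551), neither called.

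Among 20 genes of calcium handling and excitation-contraction coupling, 0 were called in the change (0.0726% of all genes), by limma. An unadjusted p below 0.05 was found for 3 of them (9.70% of all genes). Sln, sarcolipin, an inhibitor of the calcium pump, had an estimate of 1.004 ± 0.29 (limma adjusted p = 0.194). Its Gaa-/- levels were 6.90 to 7.91 at 4 months and 8.56 to 8.83 at 9 months, against 6.50 to 7.12 and 6.40 to 7.10 in WT. Gaa-/- groups therefore did not overlap between ages, while WT groups did. Rrad, a small GTPase that restrains calcium channels, was at -1.23 ± 0.43 (limma adjusted p = 0.309), with differences of 3.24 at 4 and 2.01 at 9 months.

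Crhr2 was lower in Gaa-/- than in WT at 4 months and was not called at 9 months. WT levels were 9.03, 8.64, 8.93 and 8.73 at 4 months and 8.29, 8.05, 8.32 and 8.20 at 9 months. Gaa-/- levels were 7.86, 8.24, 8.001 and 8.20 at 4 months and 8.33, 8.71, 8.62 and 8.51 at 9 months. On deposited values every Gaa-/- array was below every WT array at 4 months and above every WT array at 9 months. After quantile normalization the groups overlapped at 9 months, at 8.25 to 8.57 in WT and 8.37 to 8.82 in Gaa-/-. The difference at 4 months was -0.76 ± 0.12 (limma adjusted p = 3.49e-05). At 9 months it was 0.33 ± 0.12, which was not called (limma adjusted p = 0.0671; 0.19 with an adjusted p of 0.346 after quantile normalization). The change of 1.08 ± 0.17 was called (95% confidence interval 0.74 to 1.42, limma adjusted p = 0.00532; after quantile normalization 0.97, limma adjusted p = 0.0345). In the fit of the 16 arrays alone Crhr2 was not called.

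Genes of the ligands of the receptor were also on the array. Ucn encodes urocortin, and its levels were 6.27 to 6.50 in WT at 4 months, 7.46 to 8.14 in WT at 9 months, 6.51 to 7.05 in Gaa-/- at 4 months and 6.58 to 7.34 in Gaa-/- at 9 months. The WT groups did not overlap and the Gaa-/- groups did. Its change of -1.02 ± 0.24 was not called (limma adjusted p = 0.101; 0.0919 after quantile normalization), but it was called with the filter on dim genes (0.0436) and with the trended, robust prior (0.0429). Ucn2, Ucn3 and Crh had estimates of 0.47, -0.47 and 0.12 with adjusted p-values of 0.622, 0.496 and 0.876 in limma. Crhr1, the paralog of the receptor, was at -0.33 ± 0.26 (limma adjusted p = 0.733), at levels of 3.95 to 5.13, below the array medians.

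Mybph had the largest fall among the called genes. In WT it was at 5.59, 5.72, 5.53 and 5.41 at 4 months and 6.25, 6.55, 5.98 and 6.17 at 9 months. In Gaa-/- it was at 7.94, 8.31, 8.07 and 8.72 at 4 months and 7.27, 7.23, 7.17 and 7.09 at 9 months. Gaa-/- arrays lay above WT arrays at both ages, and the gap was smaller at 9 months. The WT values of 4 months lay close to the lowest array median of 5.66. Mybph rose by 0.67 in WT with age (limma adjusted p = 0.0403) and fell by 1.07 in Gaa-/- (limma adjusted p = 0.0127). The genotype difference went from 2.70 ± 0.24 to 0.96 ± 0.24, and both were called. The change was -1.74 ± 0.33 (95% confidence interval -2.42 to -1.06, limma adjusted p = 0.027), or -1.65 after quantile normalization (limma adjusted p = 0.0415). Leaving out 1 array kept the call in 9 of 16 cases, and the adjusted p reached 0.0785 without replicate 2 of WT at 9 months. Of the related genes, Mybphl, Mybpc1, Mybpc2 and Mybpc3 had estimates between -0.19 and 0.19, and none was called.

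Slc8a2 encodes a sodium-calcium exchanger of the plasma membrane. Its levels were 4.004, 3.75, 4.11 and 3.79 in WT at 4 months and 4.70, 4.35, 4.51 and 4.55 in WT at 9 months. In Gaa-/- they were 3.63, 3.85, 4.23 and 4.04 at 4 months and 3.51, 3.74, 3.71 and 3.64 at 9 months. All 16 values lie below the lowest array median of 5.66, so this is a difference among dim signals. On deposited values WT at 9 months stood above the other groups. After quantile normalization it lay at 4.24 to 4.54 and overlapped Gaa-/- at 4 months, at 3.68 to 4.38. The change was -0.90 ± 0.18 (limma adjusted p = 0.027), or -0.89 after quantile normalization (limma adjusted p = 0.0446). It was called in 7 of 16 fits with 1 array left out, and its highest adjusted p of 0.0812 came without replicate 2 of WT at 4 months. The exchanger paralog Slc8a1 had an estimate of -0.55 ± 0.23 (limma adjusted p = 0.408) and Slc8a3 0.16 ± 0.16 (limma adjusted p = 0.807).

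Relt encodes a cell-surface receptor related to the tumour necrosis factor receptors. Its levels in WT were 6.99, 7.05, 6.89 and 6.77 at 4 months and 6.54, 5.90, 6.46 and 6.52 at 9 months. In Gaa-/- they were 6.67, 6.71, 7.28 and 7.16, then 7.65, 7.34, 7.65 and 7.33. The genotypes overlapped at 4 months and did not at 9 months. Relt fell by 0.57 with age in WT (limma adjusted p = 0.00364) and rose by 0.54 in Gaa-/- (limma adjusted p = 0.0269). The change was 1.11 ± 0.19 (limma adjusted p = 0.0182). It was called in 14 of 16 fits with an array left out, with 0.0645 as the highest adjusted p, without replicate 1 of WT at 4 months. The low value of 5.90 was replicate 2 of WT at 9 months.

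Mocs2 encodes both subunits of molybdopterin synthase, an enzyme of molybdenum cofactor synthesis. WT levels were 7.11, 7.005, 6.76 and 7.09 at 4 months and 5.24, 5.51, 5.74 and 5.37 at 9 months, a fall of 1.53 (limma adjusted p = 9.3e-06). Gaa-/- levels were 5.52, 6.21, 6.42 and 6.44, then 6.13, 5.61, 5.87 and 6.50, overlapping between the ages. The WT values of 5.24, 5.51 and 5.37 and the Gaa-/- values of 5.52 and 5.61 lay below the lowest array median of 5.66. Mocs2 was lower in Gaa-/- at 4 months, with a difference of -0.85 ± 0.19 (limma adjusted p = 0.00425). At 9 months the difference was 0.56 ± 0.19 (limma adjusted p = 0.0506), and 0.61 after quantile normalization, where it was called (limma adjusted p = 0.0285). The change was 1.41 ± 0.27 (limma adjusted p = 0.027), called in 8 of 16 fits with 1 array left out and at most 0.0878 without replicate 1 of WT at 4 months. Of the other genes of the cofactor pathway, Mocs1, Mocs3 and Gphn had estimates of 0.26, -0.11 and 0.16. Of the enzymes that carry the cofactor, Suox, sulfite oxidase, was at 0.32 ± 0.17 (limma adjusted p = 0.558). None of them was called.

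Rnf166, a RING-type ubiquitin ligase, and Clip4, a microtubule-binding protein, had differences of 0.30 and 0.43 at 6 months and of 1.30 and 1.03 at 9 months. Rnf166 was at 6.39, 6.40, 5.87 and 6.01 in WT at 4 months and 5.77, 4.99, 6.01 and 5.37 at 9 months. Its WT values of 4.99 and 5.37 lay below the lowest array median of 5.66. Its Gaa-/- levels were 5.97, 6.55, 6.37 and 6.32 at 4 months and 6.84, 6.86, 6.76 and 6.88 at 9 months. The Gaa-/- arrays of 9 months lay close together above all others, and its change was 1.17 ± 0.24 (limma adjusted p = 0.0386). Clip4 was at 11.02, 10.92, 10.91 and 10.91 in WT at 4 months and 10.52, 10.42, 10.39 and 10.72 at 9 months. Its Gaa-/- levels were 11.02, 11.23, 11.38 and 11.18, then 11.67, 11.37, 11.56 and 11.58. The genotypes were apart by 0.27 at 4 months, not called, and by 1.03 at 9 months, called, and the change was 0.77 ± 0.14 (limma adjusted p = 0.0232). Without 1 array, Rnf166 was called in 6 of 16 fits and Clip4 in 11, with highest adjusted p-values of 0.145 (without replicate 1 of Gaa-/- at 4 months) and 0.0691 (without replicate 1 of WT at 4 months).

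Tm6sf1 and Tmem222, which encode multi-pass membrane proteins, changed in WT more than in Gaa-/-. Tm6sf1 was at 7.85, 7.97, 7.74 and 7.84 in WT at 4 months and 6.79, 6.61, 6.25 and 7.09 at 9 months, a fall of 1.17 (limma adjusted p = 2.2e-05). In Gaa-/- it was at 7.24, 7.58, 7.66 and 7.86, then 7.53, 7.39, 7.76 and 7.60, a difference of -0.014 (limma adjusted p = 0.969). Its change was 1.15 ± 0.22 (limma adjusted p = 0.027). Tmem222 was at 6.86 to 7.08 in WT at 4 months and 6.07 to 6.37 at 9 months, a fall of 0.71 (limma adjusted p = 0.000133). Its Gaa-/- levels were 6.75 to 7.23 and 6.84 to 7.02. For Tmem222 the change was 0.80 ± 0.16 (limma adjusted p = 0.0425). With 1 array left out Tm6sf1 was called in 7 of 16 fits and Tmem222 in 5, and without replicate 1 of Gaa-/- at 4 months their adjusted p-values were 0.112 and 0.139.

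Scmh1 and Dele1 were called with opposite signs at 4 and 9 months on deposited values. Scmh1 encodes a Polycomb group protein, and Dele1 a mitochondrial protein that relays mitochondrial stress to the cytosol. Scmh1 was at 7.22, 7.07, 6.96 and 6.97 in WT and 6.55, 6.87, 6.57 and 6.59 in Gaa-/- at 4 months. At 9 months it was at 6.36, 6.76, 6.66 and 6.55 in WT and 6.98, 6.77, 6.95 and 6.86 in Gaa-/-. On deposited values the groups did not overlap at either age and changed order, with 6.76 in WT next to 6.77 in Gaa-/- at 9 months. After quantile normalization they overlapped at 9 months, at 6.40 to 6.85 in WT and 6.80 to 6.98 in Gaa-/-, and that difference was not called (0.26, limma adjusted p = 0.0719). Its differences were -0.40 ± 0.10 and 0.31 ± 0.10 (limma adjusted p = 0.0115 and 0.044), and the change was 0.71 ± 0.14 (limma adjusted p = 0.0386). Dele1 was at 8.51 to 8.81 in WT and 8.11 to 8.40 in Gaa-/- at 4 months, then 7.83 to 7.93 in WT and 8.17 to 8.37 in Gaa-/- at 9 months. Its change was 0.71 ± 0.13 (limma adjusted p = 0.027), with 0.0632 after quantile normalization. Scmh1 was called in 6 of 16 fits with an array left out and Dele1 in 12, with highest adjusted p-values of 0.119 (without replicate 1 of Gaa-/- at 4 months) and 0.0878 (without replicate 1 of WT at 4 months).

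The other calls that rested on the deposited scale were Ak3 and Nfic. Ak3 encodes an adenylate kinase of the mitochondrial matrix. It was at 10.03, 9.90, 9.79 and 9.89 in WT at 4 months, and at 9.29, 9.37, 9.49 and 9.43 in WT at 9 months. Gaa-/- levels were 9.62, 9.71, 9.60 and 9.66 at 4 months and 9.72, 9.89, 9.88 and 9.85 at 9 months. Its change was 0.70 ± 0.13 (limma adjusted p = 0.0232), and 0.56 with an adjusted p of 0.098 in limma after quantile normalization. Nfic encodes a transcription factor of the nuclear factor I family. It did not change with age in WT by the test (-0.059, limma adjusted p = 0.671) and rose in Gaa-/- by 0.57 (limma adjusted p = 0.00048), from 8.89 to 9.08 at 4 months to 9.48 to 9.68 at 9 months. Its change of 0.63 ± 0.13 (limma adjusted p = 0.0386) was 0.50 after quantile normalization (limma adjusted p = 0.188).

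Quantile normalization added 4 calls. Vcan encodes versican, a proteoglycan of the extracellular matrix. It was at 6.64 to 6.88 in WT and 7.33 to 7.54 in Gaa-/- at 4 months, and at 7.28 to 7.38 in WT and 7.18 to 7.36 in Gaa-/- at 9 months, so that a gap at 4 months was followed by overlap. After quantile normalization the groups of 9 months did not overlap (7.37 to 7.55 in WT and 7.19 to 7.34 in Gaa-/-). Its change was -0.76 ± 0.16 (limma adjusted p = 0.0518), and -0.83 after quantile normalization (limma adjusted p = 0.0415). Rras, a small GTPase of the Ras family, was at 0.81 ± 0.17 (limma adjusted p = 0.0518) and 0.70 (limma adjusted p = 0.0446) on the same scales. Asb5, which encodes an ankyrin repeat protein with a SOCS box, and Dnajc18, which encodes a J-domain protein, fell outside the rule for naming genes and were chosen after their values were seen. Their quantile-normalized estimates were -1.06 (limma adjusted p = 0.0446) and 0.78 (limma adjusted p = 0.0492).

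Pathway lists were described by counts and medians, beside 52.9% positive estimates and a median of 0.020 over all genes (-0.011 after quantile normalization). The lists of mitochondrial fuel use stood at the positive end. Of 27 measured genes of the carnitine shuttle and fatty acid beta-oxidation, 25 had positive estimates, with a median of 0.41 (0.27 and 23 of 27 after quantile normalization). All 16 genes of ketone and branched-chain amino acid breakdown had positive estimates, with a median of 0.52 (0.39 after quantile normalization). For the tricarboxylic acid (TCA) cycle and pyruvate entry 21 of 23 were positive, with a median of 0.28 (0.13). By limma, 0 genes of these lists were called on either scale (0.0726% and 0.0778% of all genes). An unadjusted p below 0.05 was found for 15, 11 and 7 of them, all higher. Over all 19291 genes, 1228 were higher at that threshold.

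Behind these medians, the change with age was larger in WT than in Gaa-/- muscle. The median beta-oxidation difference was -0.20 at 4 months and 0.27 at 9 months. In WT the median change from 4 to 9 months was -0.47, and 19 of 27 genes were called lower (13% of all genes). In Gaa-/- it was -0.062, with 2 called lower (2.33% of all genes). After quantile normalization the medians were -0.20 at 4 months, 0.16 at 9 months, -0.23 with age in WT and 0.069 with age in Gaa-/-, the last with its sign turned. After quantile normalization 9 were called lower in WT (9.13% of all genes). With array SD as a covariate 1 was, against 167 of all 19291 genes called in either direction. Array SD, narrowest in WT at 9 months, moved with this result, and its part in it was not tested. With that covariate the median change of the genotype difference was 0.28 for beta-oxidation, 0.34 for ketone and branched-chain amino acid breakdown and 0.18 for the TCA cycle. Leaving out 1 array gave beta-oxidation medians of 0.28 (without replicate 1 of Gaa-/- at 4 months) to 0.48.

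Crat, carnitine acetyltransferase, had the smallest p of the beta-oxidation list. Its levels were 10.43 to 10.64 in WT and 10.53 to 10.65 in Gaa-/- at 4 months, and 10.04 to 10.35 and 10.75 to 10.91 at 9 months. The genotypes overlapped at 4 months and not at 9 months. The change was 0.55 ± 0.13 (limma adjusted p = 0.101; 0.025 with the filter on dim genes and 0.0167 with the trended, robust prior). Hadh, hydroxyacyl-CoA dehydrogenase, was at 0.72 ± 0.18 (limma adjusted p = 0.137), Echs1, enoyl-CoA hydratase, at 0.81 ± 0.22 (limma adjusted p = 0.153) and Acadl, long-chain acyl-CoA dehydrogenase, at 0.61 ± 0.17 (limma adjusted p = 0.16). In the ketone and amino acid list, Oxct1, which activates ketone bodies, was at 0.85 ± 0.24 (limma adjusted p = 0.17). Idh2, mitochondrial isocitrate dehydrogenase, had the largest estimate of the TCA list, 1.45 ± 0.39 (limma adjusted p = 0.16). Its Gaa-/- levels were 8.69 to 9.88 at 4 months and 10.19 to 10.51 at 9 months, and the latter lay above all WT values of both ages, 8.22 to 9.55.

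Subunits of the respiratory chain and of protein synthesis had smaller positive medians that shrank after quantile normalization. For complex I, 33 of 34 estimates were positive with a median of 0.16, and 22 of 34 with 0.042 after normalization. Without replicate 1 of WT at 9 months the median was 0.087. For complexes II to V, 38 of 41 were positive with a median of 0.21 (32 and 0.091 after normalization). For the mitochondrial ribosome, 28 of 29 were positive with a median of 0.19 (24 and 0.12), and for cytosolic ribosomal proteins 27 of 28 with 0.23 (22 and 0.096). For the proteasome, 27 of 30 were positive with 0.23 (25 and 0.14). WT muscle had 26 of 34 complex I genes, 32 of 41 of complexes II to V and 23 of 30 proteasome genes called lower with age, against 13% of all genes. After quantile normalization these were 7, 14 and 12, against 9.13%. With array SD as a covariate they were 0, 4 and 3, against 167 of all 19291 genes in either direction.

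Within these lists, Mrpl12, a protein of the mitochondrial ribosome, was at 0.67 ± 0.15 (limma adjusted p = 0.0812). Tufm, the mitochondrial elongation factor Tu, was at 0.73 ± 0.18 (limma adjusted p = 0.12). Both were called with the filter on dim genes (limma adjusted p = 0.025 and 0.048) and with the trended, robust prior (0.0258 and 0.0429). Levels of Tufm were 8.08 to 8.30 in WT at 4 months, 6.81 to 7.36 in WT at 9 months, and 7.65 to 8.23 and 7.61 to 7.83 in Gaa-/- at the same ages. Between the ages, only the WT groups were apart. Between the genotypes, the groups overlapped at 4 months and were apart at 9 months. With the trended, robust prior Hadh, Psma3, a proteasome core subunit, and Uqcrfs1, the Rieske protein of complex III, were called as well, each at a limma adjusted p of 0.0429.

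**Figure D5:**
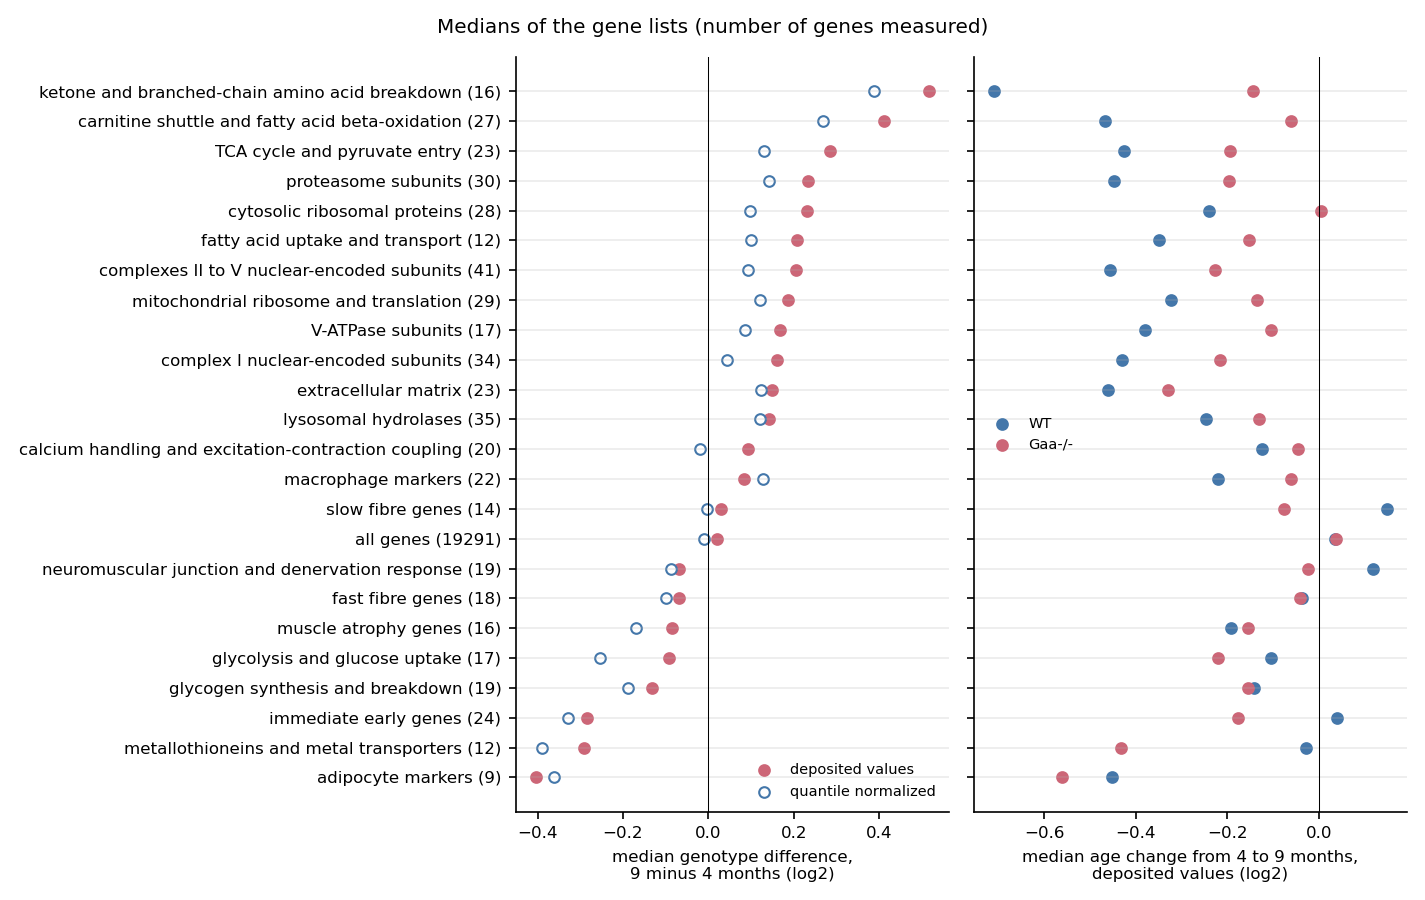
Medians of 23 gene lists and of all genes. The left panel gives the change of the genotype difference from 4 to 9 months (x axis, log2) on deposited and quantile-normalized values, and the right panel the change with age within WT and Gaa-/- (x axis, log2). Lists of fuel oxidation lie at the right of the left panel, and in the right panel their WT medians lie below their Gaa-/- medians.

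The negative end held immediate early genes, metallothioneins and adipocyte markers. Immediate early genes are transcribed within minutes of a stimulus. Of 24, 2 had positive estimates, and the median was -0.28 (-0.33 after quantile normalization). By limma 0 were called (0.0726% of all genes), and 6 had an unadjusted p below 0.05, all lower. Over all 19291 genes, 644 were lower at that threshold. Without replicate 1 of Gaa-/- at 4 months the median was -0.19 and without its replicate 4 it was -0.42. Nr4a3, an orphan nuclear receptor, had the largest absolute estimate of all 19291 genes, -2.48 ± 0.76, and was not called (limma adjusted p = 0.231). Its levels were 6.89 to 8.85 in WT and 9.42 to 10.81 in Gaa-/- at 4 months, and 8.14 to 8.73 and 7.91 to 8.43 at 9 months. The Gaa-/- arrays of 4 months were the highest, and the WT arrays of that age were widely spread. Atf3, a stress-induced transcription factor, was at -1.46 ± 0.38 (limma adjusted p = 0.141), with a difference of 1.73 at 4 months that was called and one of 0.27 at 9 months that was not.

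Metallothioneins bind zinc and copper. With the metal transporters, 3 of 12 estimates were positive and the median was -0.29 (-0.39 after quantile normalization). Mt3 was at 4.65 to 5.40 in WT and 7.97 to 8.33 in Gaa-/- at 4 months, and at 5.14 to 5.68 and 7.28 to 7.72 at 9 months. Gaa-/- stayed above WT at both ages, and Mt3 fell by 0.77 in Gaa-/- (limma adjusted p = 0.0192). The change was -1.20 ± 0.26 (limma adjusted p = 0.0639; 0.025 with the filter on dim genes and 0.0258 with the trended, robust prior). Mt3 passed that filter only through the Gaa-/- groups, where it is high, so the call under the filter is no separate support. Mt1 was at -0.69 ± 0.26 (limma adjusted p = 0.36), with differences of 2.78 and 2.09.

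Genes of muscle wasting had a median of -0.085 over 16 genes, 6 of them positive. Trim63, the ubiquitin ligase MuRF1, had the smallest p at -0.93 ± 0.24 (limma adjusted p = 0.14). Its levels were 9.71 to 10.10 in WT and 10.86 to 11.71 in Gaa-/- at 4 months, and 9.81 to 10.11 and 9.94 to 10.46 at 9 months. It was higher in Gaa-/- at 4 months (1.25, limma adjusted p = 4.24e-06) and was not called at 9 months (0.32, limma adjusted p = 0.236). The 19 genes of the neuromuscular junction and denervation response had a median of -0.068, with 8 positive. Ncam1, the neural cell adhesion molecule, differed by 2.60 at 4 months and 3.08 at 9 months, and its change of 0.48 ± 0.20 was not called (limma adjusted p = 0.405).

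Lysosomal hydrolases, the enzymes that act beside acid alpha-glucosidase, had 26 of 35 positive estimates and a median of 0.14 (0.12 after quantile normalization). Hexa, a subunit of beta-hexosaminidase, differed by 1.46 at 4 months and 2.05 at 9 months, with a change of 0.59 ± 0.19 (limma adjusted p = 0.277). V-ATPase subunits, which acidify lysosomes, had a median of 0.17 over 17 genes. Glycogen synthesis and breakdown had 6 of 19 positive estimates and a median of -0.13 (-0.19). Phkg1, the catalytic subunit of muscle phosphorylase kinase, was lower in Gaa-/- at both ages (-0.70 and -1.14, both called), and its change was -0.44 ± 0.13 (limma adjusted p = 0.181). Glycolysis and glucose uptake had 4 of 17 positive estimates and a median of -0.091, or -0.25 after quantile normalization. By limma 0 genes of these 4 lists were called in the change (0.0726% of all genes). An unadjusted p below 0.05 was found for 3, 3, 4 and 5 (9.70% of all genes).

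Markers of other cells of the muscle were examined beside these results. Macrophage markers had 15 of 22 positive estimates and a median of 0.083 (0.13 after quantile normalization), but with array SD as a covariate 11 were positive and the median was -0.0033, and without replicate 4 of Gaa-/- at 9 months it was -0.021. Their mean level was 5.60 to 5.67 in WT at 4 months, 5.35 to 5.48 in WT at 9 months, 6.02 to 6.45 in Gaa-/- at 4 months and 6.03 to 6.46 in Gaa-/- at 9 months. Adipocyte markers had 3 of 9 positive and a median of -0.40. Their mean level was 6.75 to 7.03, 6.31 to 7.02, 6.66 to 7.35 and 6.30 to 6.55 in the same order. Adipoq, adiponectin, ranged from 6.70 to 7.61 in Gaa-/- at 4 months and from 4.83 to 6.13 at 9 months, with a change of -0.93 ± 0.65 (limma adjusted p = 0.68). Fast fibre genes had 7 of 18 positive and a median of -0.069. The part of these cell markers in the changes above was not tested.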

How the data were processed

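Total RNA of 32 tibialis anterior muscles was biotin-labelled and read on 1-colour Affymetrix arrays. The authors deposited log2 values per probe set; the submitters' processing notes name RMA and affy, with versions, build and filters not given in the sources used here. RMA background correction and summary leave no depth or detection value, so precision rests on how many arrays there were. Of 20079 probe sets, 19291 had 1 gene symbol in the platform annotation, 0 several and 788 none.

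With R 4.3.3 and limma 3.58.1, a model with 8 group means was fitted to 32 arrays (24 residual and 6.93 prior degrees of freedom), without a filter, block or covariate, and eBayes p-values were two-sided. Groups came from the labels. The model was tested on simulated data. The alternatives were quantile normalization, median centring, array SD as a covariate, a filter on dim genes, the 16 arrays alone, the replicate number as a block, a trended and robust prior, and leaving out each of 16 arrays. A further 2, chosen after seeing the data, were quantile normalization of the 16 arrays alone and of the arrays without the narrowest.

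Genes named were Gaa; those called on both scales, up to 15 each way; those called with opposite signs at both ages; the 5 smallest p-values among genes called on 1 scale; and up to 6 members of each list with the smallest p. The 36 relatives of called genes (33 measured) were listed after the calls were known. The members, lists and tests were chosen with earlier results of these data known. No set test was run. Promoters came from a RefSeq table of GRCm38.p6, matched by symbol.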

Additional observations from a re-analysis of the deposited data

Results flagged for a closer look

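The 14 genes whose genotype difference changed between 4 and 9 months by limma are listed first, since a difference between ages was tested directly. On the log2 scale the change was 1.64 for Casq2, 1.41 for Mocs2, 1.17 for Rnf166, 1.15 for Tm6sf1, 1.11 for Relt and 1.08 for Crhr2. It was 0.80 for Tmem222, 0.77 for Clip4, 0.71 for Scmh1, 0.71 for Dele1, 0.70 for Ak3 and 0.63 for Nfic. It was -1.74 for Mybph and -0.90 for Slc8a2.

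Single arrays stood apart from the other 3 of their group in 8 of the 80 groups of values examined, by Dixon's criterion, which flags about 1 group in 20 by chance. They were Relt at 5.90 in WT at 9 months, Tmem222 at 7.23 in Gaa-/- at 4 months, Clip4 at 11.02 in WT at 4 months and Scmh1 at 6.87 in Gaa-/- at 4 months. Dele1 was at 8.81 in WT at 4 months, and Rras at 7.996 in WT at 9 months and 8.69 in Gaa-/- at 4 months. The array SD of 1.90 in WT at 4 months, that of replicate 3, was below the others of its group.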

How the results depend on the processing

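For the change of the genotype difference, median centring gave 10 calls and array SD as a covariate 15, 4 of them lower. Quantile normalization gave 4 lower calls, 516 calls with age in Gaa-/- and, at 9 months, 2503 calls with 55.3% higher against 68.1% on deposited values. With age in WT it gave 51.4% higher calls against 39%. With the covariate, 1328 genes were called at 9 months, 167 with age in WT and 191 with age in Gaa-/-. The filter on dim genes gave 44 calls (37 higher, 7 lower), and the trended, robust prior 42 (37 and 5). The 16 arrays alone gave 2 calls (1 and 1) and 213 with age in Gaa-/-. After quantile normalization of those 16 alone there were 2 calls (1 and 1), 2593 with age in WT and 154 in Gaa-/-. Quantile normalization without the narrowest array gave 7 calls (7 higher, 0 lower) and 2247 with age in WT. Leaving out each of 16 arrays in turn gave 2 to 53 calls (2 to 46 higher, 0 to 7 lower), 820 to 1169 at 4 months, 1572 to 2687 at 9 months, 2578 to 4887 with age in WT and 149 to 1708 in Gaa-/-. The change in array SD in WT was -0.145 to -0.104. Of the 14 genes called in the change, each kept its sign in every alternative in which it was tested, which their choice by this contrast favours. The signs of the other calls were not tabulated. The causes of these shifts were not tested. No background was measured on these arrays, and 8428 of 19291 genes had a mean below the lowest array median in all 4 groups.

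The replicate number as a block gave 10 calls (8 higher, 2 lower). Same-numbered arrays had correlations of -0.197 to 0.256 over 24 pairs, and 4 of 16 arrays correlated best with their own number, so the numbers were not taken as a pairing.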

Other observations

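Among the 788 probe sets without a gene symbol, 0 were called by limma in the change of the genotype difference from 4 to 9 months. Of them, 72 had an unadjusted p below 0.05, against 9.70% of the genes with a symbol.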
